A study of Canis lupus familiaris with 10 samples.

Results

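Heterotrimeric G proteins and the proteins that switch them off were followed in the retina of dogs with and without glaucoma. The members are the alpha, beta and gamma subunits of G proteins, the RGS proteins (regulators of G protein signaling) with their membrane anchors, and a set of receptor kinases, arrestins, adenylyl cyclases and non-receptor regulators. They were picked by a rule on gene symbols that uses no measured value. The rule leaves out the transducin subunits GNAT1, GNAT2, GNGT1 and GNGT2, and also GNG13 and RGS5. Probe sets with exactly 1 symbol from this set numbered 105 of the 42924 on the array and covered 56 genes. Of these, 56 probe sets of 31 genes were expressed, that is, had a log2 intensity above 7 in at least 2 of the 10 dogs, among 18416 expressed probe sets and 7900 expressed genes overall. Of the 56, 3 exceeded 7 in glaucoma dogs only (both RGS1 probe sets and that of RGS14) and 2 in healthy dogs only (RGS7BP and ADCY8).

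A heterotrimeric G protein couples a receptor to enzymes and channels inside the cell: the activated receptor loads GTP onto the alpha subunit, which parts from the beta-gamma pair, and both then act on their targets. RGS proteins speed the hydrolysis of GTP and so end the signal. The retina relies on such cascades for vision itself, with transducin in rods and cones and the Go protein in ON bipolar cells, where light signals are passed on through a glutamate receptor.

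Total RNA of the retina was hybridized to 1 Affymetrix Canine Genome 2.0 array per dog. The glaucoma group held 5 dogs with spontaneous primary glaucoma and closed iridocorneal angles, namely 2 Shiba Inus aged 5 and 14 years, 2 Basset Hounds aged 5 and 7 years and 1 Dalmatian aged 9 years. Controls were 5 healthy Beagles, each 4 years old. The glaucomatous eyes were at an advanced stage and came from patients under pressure-lowering treatment, the study's own table gives younger ages than the labels for the older Shiba Inu and the Dalmatian, and no breed or age was shared by the groups, so that disease, breed, age and treatment cannot be told apart. Each dog gave 1 retina, and a p-value measures the spread between these dogs.

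Arrays had median intensities of 77.1 to 80.7 and between 15910 and 16315 probe sets over the minimum. The array of the 5-year-old Shiba Inu stood apart, with a mean correlation of 0.87 to its own group, whereas healthy arrays reached 0.96 to 0.98. Rod markers in this retina had a median log2 deviation of -3.56 from the healthy mean and pigment epithelium markers one of 3.37; among healthy dogs, replicate 4 had a pigment epithelium deviation of 2.58. The labelled tissue was checked against rod markers, of which all 9 with a probe set were expressed, while POU4F1, POU4F2 and POU4F3, which define ganglion cells, did not reach the minimum.

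Of the 31 expressed member genes, 5 were detected at reduced levels in the glaucomatous retina, 3 at elevated levels, and 23 did not pass the test (limma, adjusted p under 0.05). The genes at reduced levels were GNAO1, GNAI1, GNG3, ADCY2 and ADCY8, which are subunits and cyclases known from neurons, and those at elevated levels were GNAI2, RGS10 and RGS1, known from immune cells among others. The share of reduced genes was 16.1%, beside 8.65% of all expressed genes, and the share of elevated genes was 9.68%, beside 8.04%. The median difference over the member genes was 0.01 on the log2 scale, and that over all genes was -0.01. Counted by probe set, 8 of 56 (14.3%) were lower and 6 (10.7%) were higher, where the background was 9.4% and 7.58%. All of them also exceeded a 2-fold change. Of all expressed probe sets, 3.12% passed the test with at least that size downward and 2.95% upward.

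**Figure D1:**
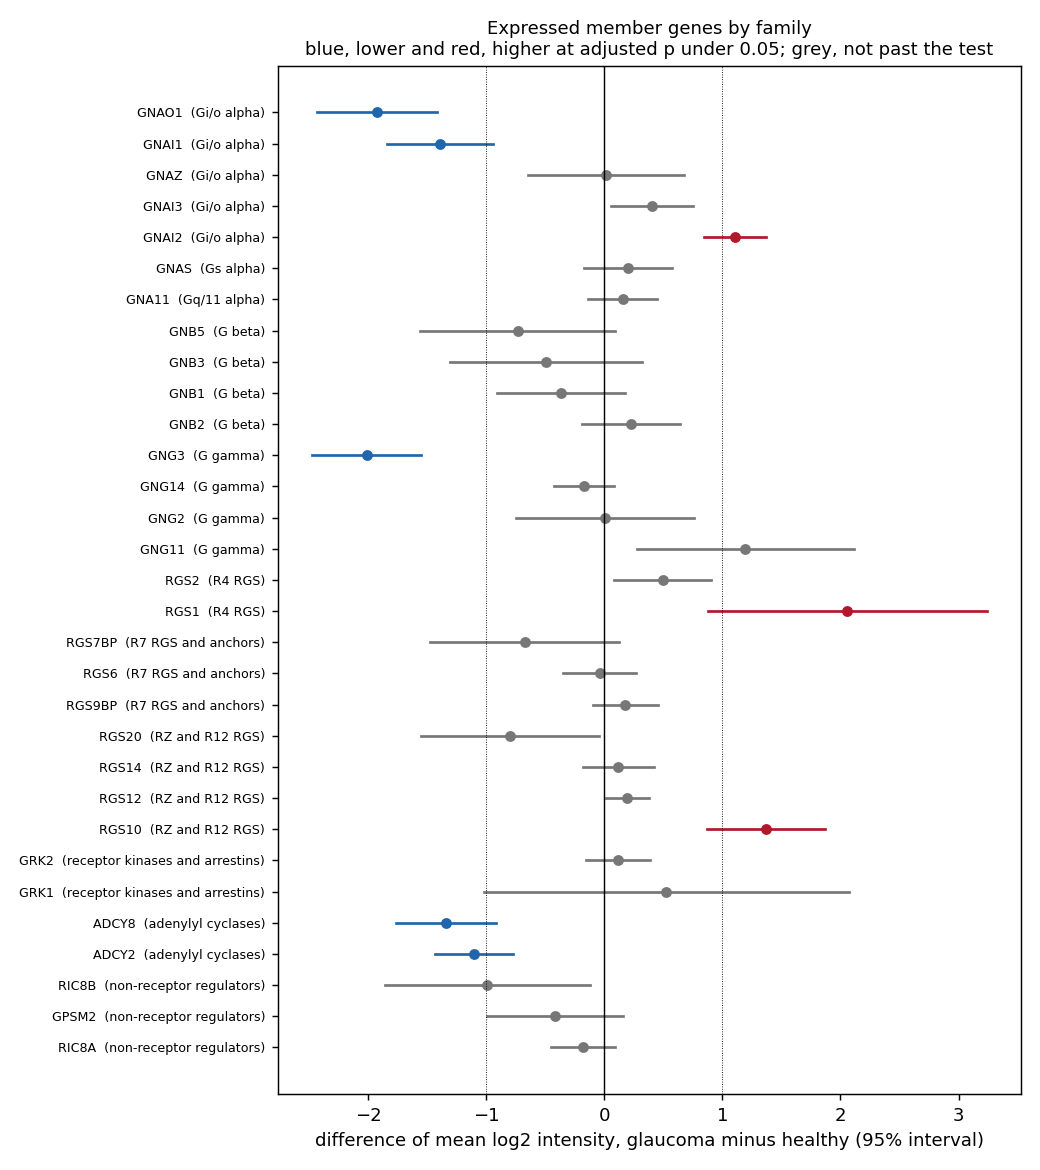
Difference of mean log2 intensity between 5 glaucoma and 5 healthy retinas for the 31 expressed member genes, ordered by family, with 95% intervals from limma; dotted lines mark 2-fold changes. Within the Gi/o alpha family GNAO1 at -1.92 and GNAI1 at -1.39 lie on the left and GNAI2 at 1.11 on the right, and none of the 4 beta subunits passed the test.

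The Gi/o alpha subunits, which inhibit adenylyl cyclase or act through their beta-gamma partners, moved in both directions, with 2 lower, 1 higher and 2 that did not pass. Values of the glaucoma dogs are given below in the order 5-year-old and 14-year-old Shiba Inu, 5-year-old and 7-year-old Basset Hound, and Dalmatian, and those of the healthy Beagles in the order of their replicate numbers. GNAO1 encodes the alpha subunit of Go, an abundant G protein of neurons that ON bipolar cells use to relay the light signal. Its log2 intensity was 9.04, 9.08, 9.50, 8.49 and 8.44 in the glaucoma dogs and 11.13, 10.84, 11.15, 10.26 and 10.78 in the healthy dogs. No glaucoma value reached the lowest healthy value, and the gap between the groups was 0.77. The mean fell from 10.83 ± 0.36 (SD, n = 5) to 8.91 ± 0.44 (SD, n = 5), a difference of -1.92 (SE 0.23, adjusted p = 0.000341) or 3.79-fold. GNAO1 was read by 1 expressed probe set, whose suffix marks probes that can match more than 1 transcript. A separate GNAO1 probe set was not expressed (mean 4.46 in glaucoma, 4.29 in healthy dogs) and differed by 0.17, so the call rests on 1 probe set.

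GNAI1, an alpha subunit that inhibits adenylyl cyclase and is common in the nervous system, measured 10.45, 9.55, 9.70, 9.31 and 10.23 in the glaucoma dogs and 11.33, 11.36, 11.02, 11.30 and 11.16 in the healthy dogs. The groups did not overlap, and the 5-year-old Shiba Inu and the Dalmatian lay nearest to the healthy range. The difference was -1.39 (SE 0.20, adjusted p = 0.00118), from 11.23 ± 0.14 to 9.85 ± 0.48 (SD, n = 5 each). A separate GNAI1 probe set gave -1.54.

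GNAI2, the inhibitory alpha subunit that predominates in blood cells and also occurs in many other cells, went the opposite way. Its values were 12.62, 12.38, 12.50, 12.58 and 12.71 in glaucoma and 11.59, 11.24, 11.70, 11.49 and 11.23 in healthy retinas. All glaucoma dogs lay above all healthy dogs, and their SD of 0.12 was the smallest glaucoma SD among the 8 genes that passed. GNAI2 rose by 1.11 (SE 0.12, adjusted p = 0.000195), which is 2.16-fold, and by 1.60 in its other expressed probe set. GNAI3, the third inhibitory alpha subunit, had a difference of 0.41 (adjusted p = 0.0992) and GNAZ, an alpha subunit of neurons and platelets, one of 0.02 (adjusted p = 0.978); neither passed.

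The remaining alpha subunits gave no call. GNAS, the stimulatory subunit that activates adenylyl cyclase, differed by 0.20 with a 95% interval from -0.17 to 0.57. GNA11, which activates phospholipase C beta, differed by 0.16 with an interval from -0.13 to 0.45. These intervals leave room for changes of less than 2-fold only. GNAL, GNAQ, GNA12, GNA13, GNA14 and GNA15 had no expressed probe set.

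Of the beta subunits, 4 of 5 were expressed and none passed the test, with differences of -0.36 for GNB1, 0.23 for GNB2, -0.49 for GNB3 and -0.73 for GNB5. GNB1 is the beta subunit of rod transducin, GNB3 that of cone transducin and of the ON bipolar cascade, and GNB5 is the partner that stabilizes RGS proteins of the R7 class. The mean hid a split among the glaucoma dogs. GNB1 read 12.41 for the 5-year-old Shiba Inu and 13.35 for the Dalmatian, while the other glaucoma dogs, at 13.76 to 13.88, lay within the healthy range of 13.71 to 13.91. In 4 of the 5 expressed GNB1 probe sets the 5-year-old Shiba Inu was the lowest of all 10 dogs. GNB3 read 8.63 in that dog and 10.29 to 10.89 in the other glaucoma dogs, and GNB5 read 7.64 there and 8.29 in the Dalmatian, against 8.95 to 9.94 in healthy retinas.

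These retinas were also low in rod and cone markers. The median rod marker deviation was -3.56 for the 5-year-old Shiba Inu, -0.71 in the Dalmatian and between -0.06 and 0.07 in the other glaucoma dogs, and the summed linear intensity of the 9 rod markers ranged from 7595 to 65039 in glaucoma and from 50840 to 70199 in healthy retinas. None of these markers passed the test as a group difference. Cone markers deviated by -2.20 and -2.32 in the same pair of dogs and by -0.23 to -1.10 in the rest, with 3 of 9 past the test, all lower. The part of the photoreceptor markers in the beta subunit values was not tested, and in whole retina fewer cells of a type and less RNA per cell cannot be told apart.

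GRK1, the rhodopsin kinase, ranged more widely than any other member, with 5.02, 9.50, 7.63, 8.43 and 7.94 in the glaucoma dogs and 6.13, 7.30, 7.38, 6.86 and 8.21 in the healthy dogs. The lowest and the highest value of all 10 both belonged to glaucomatous Shiba Inus. Its difference of 0.53 had a 95% interval from -1.02 to 2.07, so no direction can be given. RGS9BP, which anchors the rod and cone RGS protein RGS9 to the disc membrane, differed by 0.18 (adjusted p = 0.354), and RGS9 itself was not expressed.

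**Figure D2:**
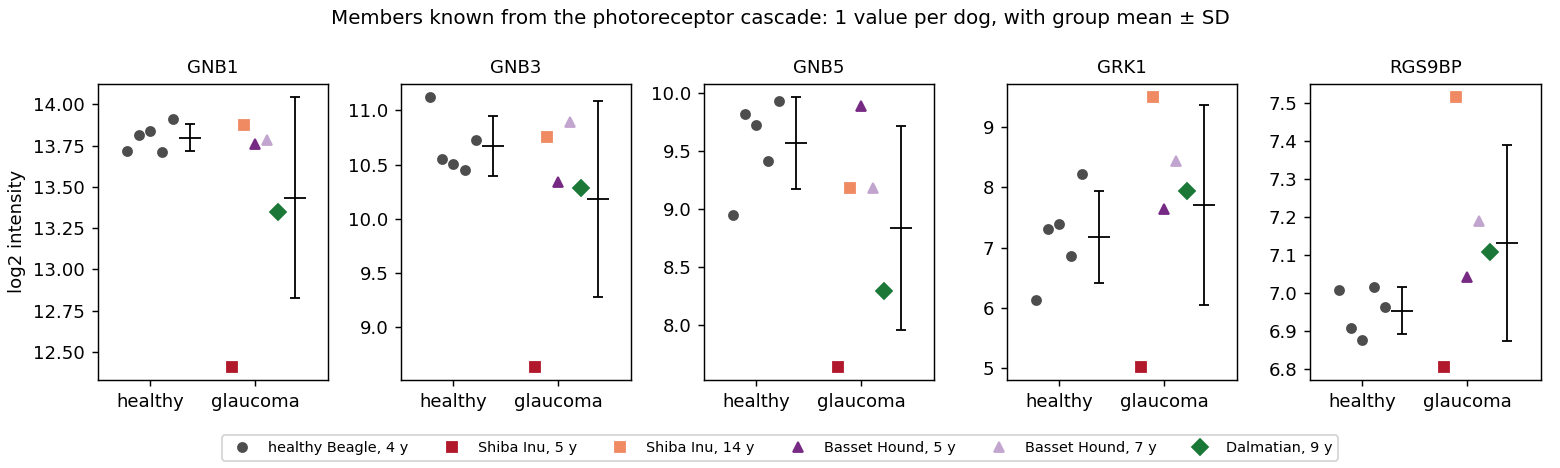
Log2 intensity of 5 members known from the photoreceptor cascade, 1 point per dog, with the group mean and SD beside the points; each panel has its own scale. The 5-year-old Shiba Inu is the lowest of all 10 dogs in every panel, at 12.41 for GNB1, 8.63 for GNB3, 7.64 for GNB5, 5.02 for GRK1 and 6.81 for RGS9BP.

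The order of dogs seen for GNB1 and GNB5, with the 5-year-old Shiba Inu lowest and the Dalmatian next, also appeared in other members. RIC8B, a chaperone and exchange factor for Gs-type alpha subunits, read 8.48 for the 5-year-old Shiba Inu and 9.25 for the Dalmatian, with 10.22 to 10.81 in the other glaucoma dogs and 10.36 to 11.32 in healthy dogs. Its mean difference of -0.99 (SE 0.39) did not pass, at an adjusted p of 0.109. RGS20, an RZ-class regulator that acts on Gi-type subunits including GNAZ, read 8.43 and 9.41 in that pair of dogs and at least 10.18 in all others, with a difference of -0.80 (adjusted p = 0.134). For GPSM2, which binds free Gi alpha subunits, the difference was -0.41 (adjusted p = 0.298), with 10.03 and 10.38 in the same pair and 10.97 to 11.52 in all others.

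Among the 31 member genes the 5-year-old Shiba Inu was the lowest of all 10 dogs for 10 genes and the highest for 7, and it lay farthest from the glaucoma mean for 16 (51.6%). The highest were GNAI3, GNAS, GNA11, GNB2, GNG11, GNG2 and GRK2. The same counts over all expressed genes are not given here, and this array also stood apart as a whole. The SD over glaucoma dogs exceeded that over healthy dogs for 25 of the 31 genes, and the median SD was 0.45 in glaucoma and 0.21 in healthy retinas, beside 0.26 and 0.18 over all genes.

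Of the gamma subunits among the members, the small membrane-bound partners of beta, 1 of 4 expressed genes passed. The transducin gamma subunits GNGT1 and GNGT2 are no members, and GNGT2 (-1.95) is given below with the phototransduction genes. GNG3, a gamma subunit of neurons, had the lowest difference of all members. Its values were 7.03, 7.75, 8.11, 7.57 and 6.89 in the glaucoma dogs and 9.54, 9.61, 9.44, 9.36 and 9.47 in the healthy dogs. Healthy dogs lay within 0.25 of each other, and the nearest glaucoma dog, the 5-year-old Basset Hound, lay 1.25 below them. GNG3 fell by 2.01 (SE 0.21, adjusted p = 0.000175), which is 4.03-fold, and a separate probe set gave -2.17. BSCL2, its neighbour in the dog genome annotation, had a difference of -0.01.

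GNG11, a gamma subunit found in many non-neuronal tissues, had a difference of 1.19 that did not pass (SE 0.42, adjusted p = 0.0739). Its values were 13.28, 11.13, 11.19, 11.70 and 12.52 in glaucoma and 11.08, 10.71, 10.41, 11.54 and 10.12 in healthy retinas. The highest were again the 5-year-old Shiba Inu and the Dalmatian, and healthy replicate 4, the dog with elevated pigment epithelium markers, had the highest healthy value. Pigment epithelium markers deviated by 3.37 and 1.11 in those glaucoma dogs, 0 of 10 passed the test, and their part in the GNG11 values was not tested. GNG2 differed by 0.01 and GNG14 by -0.17, and GNG4, GNG7 and GNG8 were not expressed.

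**Figure D3:**
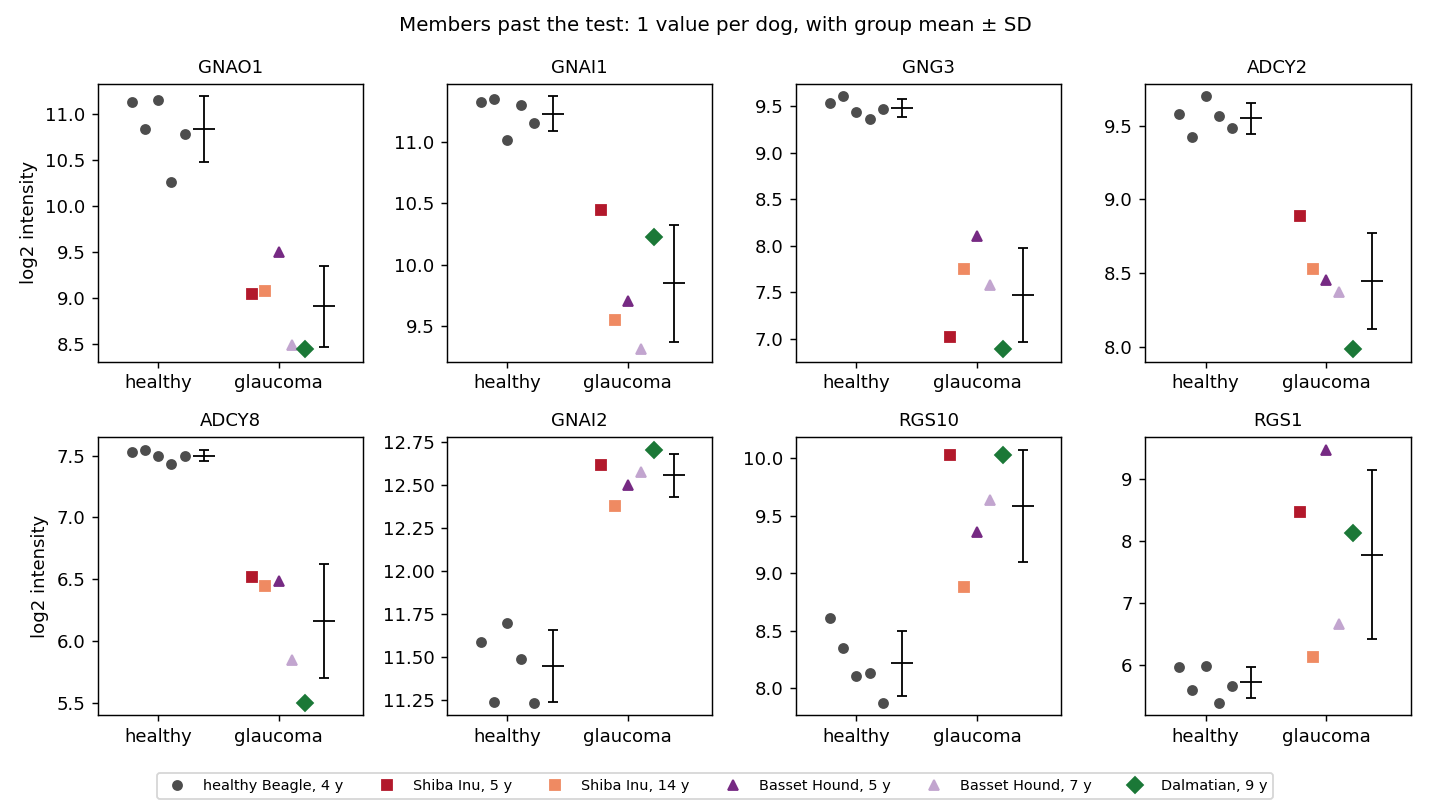
Log2 intensity of the 8 members that passed the test, 1 point per dog, with the group mean and SD beside the points; each panel has its own scale. The groups do not overlap in any panel, with the widest gap for GNG3 (1.25) and the narrowest for RGS1 (0.15).

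Both expressed members among the adenylyl cyclases, which make the second messenger cyclic AMP, were detected at reduced levels. ADCY2, a cyclase of neurons that beta-gamma subunits can stimulate, read 8.89, 8.53, 8.46, 8.38 and 7.99 in the glaucoma dogs and 9.58, 9.42, 9.70, 9.57 and 9.48 in the healthy dogs. The groups stood apart by 0.53. The difference was -1.10 (SE 0.15, adjusted p = 0.000761), and -1.12 in a separate probe set.

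ADCY8, a calcium-stimulated cyclase of neurons, read 6.52, 6.44, 6.49, 5.85 and 5.50 in glaucoma and 7.53, 7.55, 7.50, 7.43 and 7.49 in healthy retinas. No glaucoma dog reached the expression minimum of 7 and all healthy dogs did, so ADCY8 was tested only through its healthy values. Its difference was -1.34 (SE 0.19, adjusted p = 0.00101). ADCY1, a related neuronal cyclase, had no expressed probe set.

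RGS10, a small regulator that ends Gi signaling and is known from microglia and other immune cells, was elevated. It read 10.03, 8.88, 9.36, 9.64 and 10.03 in the glaucoma dogs and 8.61, 8.35, 8.11, 8.13 and 7.88 in the healthy dogs. The lowest glaucoma value, that of the 14-year-old Shiba Inu, lay 0.27 above the highest healthy one. The difference was 1.37 (SE 0.23, adjusted p = 0.00243), and a separate probe set gave 1.66 with a gap of 0.93.

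RGS1, a regulator of chemokine receptor signaling in leukocytes, had the largest rise and, of the genes that passed, the largest spread among glaucoma dogs. Its values were 8.48, 6.13, 9.47, 6.66 and 8.14 in glaucoma and 5.96, 5.59, 5.98, 5.39 and 5.66 in healthy retinas. The 14-year-old Shiba Inu and the 7-year-old Basset Hound lay below the minimum, close to the healthy dogs, and the other glaucoma dogs far above them. RGS1 therefore entered the test through its glaucoma values alone. It rose by 2.06 (SE 0.54, adjusted p = 0.0237), and by 2.01 in a separate probe set whose groups overlapped. The call was lost when the Dalmatian (difference 1.97, adjusted p = 0.0594), healthy replicate 2 (2.03, adjusted p = 0.0572), healthy replicate 4 (1.98, adjusted p = 0.0556) or healthy replicate 5 (2.05, adjusted p = 0.054) was left out.

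RGS1 lies in a row with RGS2, RGS13 and RGS18 in the dog genome annotation. RGS2, a regulator that prefers Gq-type subunits, had a difference of 0.49 that did not pass (adjusted p = 0.0953), and RGS13 and RGS18 were not expressed. Besides RGS20, described above, the other expressed RGS genes did not pass either. They were RGS6, a partner of GNB5, at -0.04, RGS12, a scaffold with several signaling domains, at 0.20, and RGS14, which binds Gi alpha subunits, at 0.12; RGS7BP, the anchor of R7-class proteins, was at -0.67. RGS12 is the one gene whose groups did not overlap (gap 0.04) without passing, at an adjusted p of 0.126. Without overlap were 8 member probe sets lower (14.3%) and 6 higher (10.7%), beside 8.03% and 6.82% of all expressed probe sets.

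Microglia, macrophage and glial markers moved beside the elevated members. Of the microglia and macrophage markers, 11 of 12 expressed genes rose, while P2RY12 (-0.37), also counted below among the Gi/o receptors, did not pass. PTPRC and ITGAM were not expressed. Healthy means lay under the minimum of 7 for CD163 (7.79 in glaucoma, 4.69 in healthy dogs), CSF1R (9.64 and 6.38), CD68 (7.44 and 6.53) and TREM2 (8.23 and 6.91). These genes were tested mainly through their glaucoma values. The summed linear intensity of the 12 expressed markers was 10657 to 24252 in glaucoma and 2335 to 3533 in healthy retinas. Median deviations of these markers were 2.73, 1.77, 1.60, 2.07 and 2.60 in the glaucoma dogs, so the 5-year-old Shiba Inu and the Dalmatian were highest here as they were for RGS10 and GNAI2. The order did not hold for RGS1, which was highest in the 5-year-old Basset Hound, the lowest dog in these markers. Of 9 Muller glia and astrocyte markers GFAP (2.46), AQP4 (1.81) and CLU (0.42) rose and 6 did not pass. GFAP (mean 8.16 in glaucoma, 5.70 in healthy dogs) and AQP4 (8.48 and 6.66) were tested only through their glaucoma values. Median deviations of the 9 markers were 0.64, 0.30, 0.15, 0.18 and 0.40, highest in the same pair of dogs. Their sums were 63264 to 80685 in glaucoma and 56579 to 65174 in healthy retinas, and KCNJ10 was not expressed. The part of microglia, macrophages and other glia in the elevated members was not tested.

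Neuronal markers moved beside the reduced members. Of ganglion cell markers 6 of 9 fell, 2 did not pass, and SNCG had probe sets of opposite direction, 2.52 in the brighter one that stands for the gene and -2.57 in the other, both past the test. Of the 6 that fell, ISL1 (mean 6.16 in glaucoma, 7.62 in healthy dogs) was tested only through its healthy values. RBPMS (6.80 and 7.70) and NRN1 (6.63 and 9.16) also had glaucoma means under the minimum. The summed intensity of the 9 ganglion cell markers was 7081 to 11504 in glaucoma and 18025 to 31029 in healthy retinas. All 6 expressed amacrine and horizontal cell markers fell, with sums of 349 to 2399 and 4889 to 6267, and GAD2, SLC6A9, SLC32A1, CHAT, TH, ONECUT1 and LHX1 were not expressed. Of the 6, TFAP2A (mean 5.90 in glaucoma, 6.96 in healthy dogs) and ONECUT2 (6.47 and 7.15) were tested only through their healthy values. Of 5 bipolar cell markers 3 fell, TRPM1, PCP2 and CABP5, with sums of 3043 to 7412 and 11429 to 14775 for the 5. NYX (0.14) and OTX2 (-0.22) did not pass, and GRM6, PRKCA, VSX1, LRIT3, GPR179 and GRIK1 were not expressed. The Dalmatian and the 7-year-old Basset Hound were lowest in amacrine and horizontal cell markers (-3.65 and -3.08). They were also lowest in ganglion cell (-3.64 and -1.98) and bipolar cell markers (-3.97 and -2.10), and for GNAO1, ADCY2 and ADCY8. GNG3 and GNAI1 had other orders, GNG3 with the Dalmatian and the 5-year-old Shiba Inu lowest, and GNAI1 with the Dalmatian second highest of the glaucoma dogs. The part of these neurons in the reduced members was not tested.

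**Figure D4:**
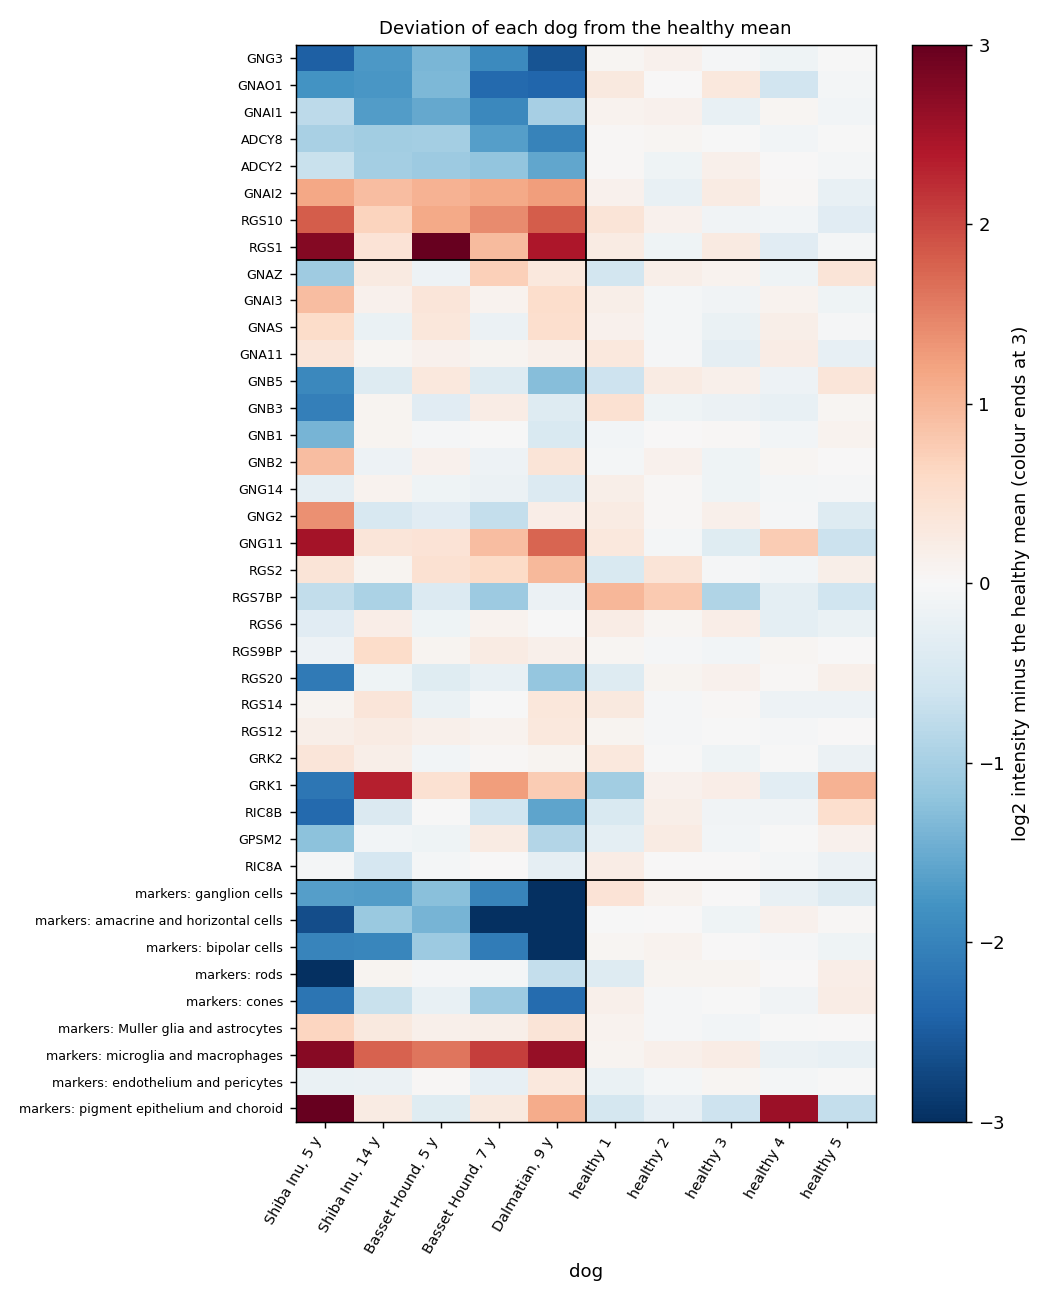
Log2 intensity of each dog minus the healthy mean for the 8 members past the test, the other 23 expressed member genes and the medians of 9 cell type marker lists, separated by horizontal lines; the colour scale ends at 3 in both directions. The first 5 columns are glaucoma dogs, and the 5-year-old Shiba Inu shows low GNB1, GNB3, GNB5, RGS20 and RIC8B beside a rod marker median of -3.56.

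Separate probe sets of a gene gave the same direction in 16 of 17 genes with at least 2 of them expressed. The exception was RIC8A, a chaperone of Gi- and Gq-type alpha subunits, at -0.18, -0.18 and 0.02, none past the test. The 8 called genes had 14 expressed probe sets, and all 14 passed. The spread within a gene was widest for GNB1, from -0.85 to -0.20, where no probe set passed.

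**Figure D5:**
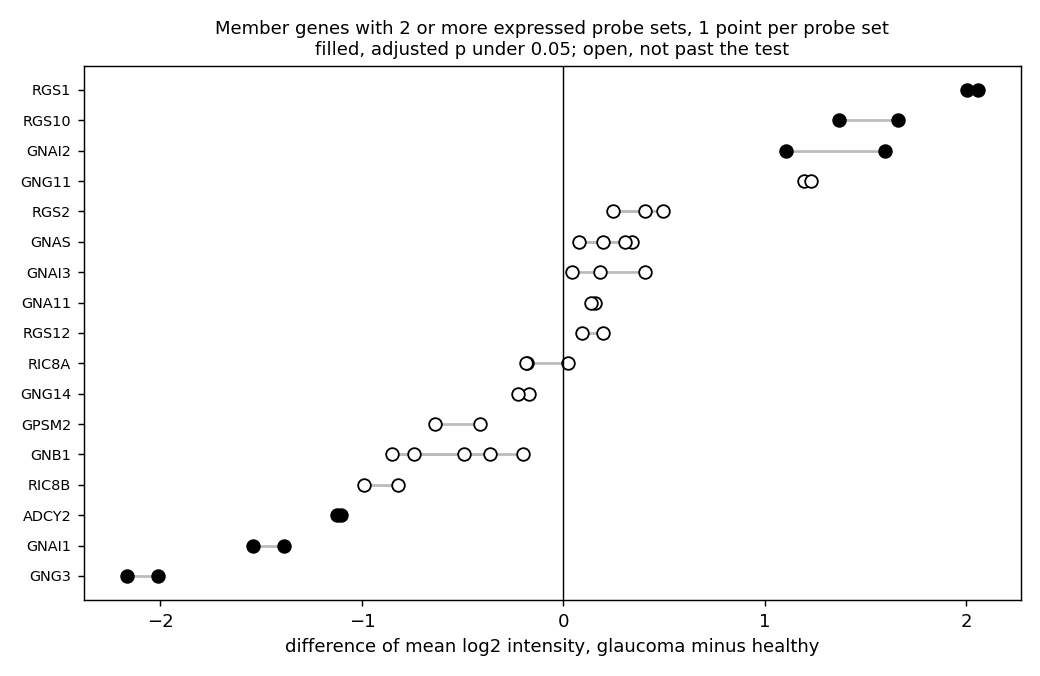
Difference of mean log2 intensity for each expressed probe set of the 17 member genes with at least 2, 1 point per probe set; filled points passed the test. Both probe sets of GNAI1, GNG3, ADCY2, GNAI2, RGS10 and RGS1 are filled, and the points of RIC8A lie on both sides of 0.

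The 25 member genes without an expressed probe set included the beta-arrestins ARRB1 and ARRB2, the receptor kinases GRK3 and GRK5, and RGS3, RGS4, RGS8, RGS9, RGS17, RGS19 and RGS22, beside those named above and GNB4 and GPSM1. GRK2, the receptor kinase that was expressed beside GRK1, differed by 0.12. Signal under the minimum on this array does not show that a transcript is absent. When the minimum was dropped and all 42924 probe sets were tested, 12 of the 105 member probe sets were lower and 8 higher, beside 4.62% and 3.69% of all probe sets. The calls this added were 4 lower, of RGS4 at -1.03, RGS7BP at -0.55, ADCY2 at -0.63 and RGS6 at -0.35, and 2 higher, of ARRB1 at 0.48 and RGS10 at 0.44.

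Other genes of G protein signaling were described from lists of receptors, effectors and phototransduction genes that hold no member. Of 126 listed genes 41 were expressed, 11 fell, 3 rose and 27 did not pass. Of all expressed genes, 8.65% fell and 8.04% rose by the same test. Receptors that couple to Gi and Go, the partners of GNAO1 and GNAI1, held 4 of the reduced genes out of 7 expressed. They were the metabotropic glutamate receptor GRM8 (-2.64), the GABA-B subunit GABBR2 (-1.12) and the somatostatin receptors SSTR1 (-2.29) and SSTR2 (-0.90), and none of this list rose. All 4 had glaucoma means under the minimum of 7 (4.82 to 6.71) and healthy means above it (7.11 to 7.79). They were thus tested mainly through their healthy values, as ADCY8 was. Among 6 receptors that couple to Gq or Gs, the endothelin receptor EDNRA rose by 1.54 and the dopamine receptor DRD5 fell by 0.43. DRD5 (mean 6.58 in glaucoma, 7.01 in healthy dogs) was tested only through healthy values near the minimum.

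Among 13 second messenger effectors, PRKACB, a catalytic subunit of protein kinase A, fell by 0.84, the protein kinase C gene PRKCB by 1.87 and PCP2, a modulator of Go that is also counted above as a bipolar cell marker, by 2.73. PRKACB had a glaucoma mean under the minimum (6.57) and a healthy mean above it (7.41). The cyclase ADCY5 rose by 0.81 and the phosphodiesterase PDE1A by 0.76. Cyclases therefore went both ways, with ADCY2 and ADCY8 lower and ADCY5 higher. Of 15 phototransduction genes only OPN1SW (-3.00), GNGT2 (-1.95) and PDE6C (-1.49), all of cones, passed the test; GNAT1, the rod transducin alpha subunit and partner of GNB1, was at -0.54 (adjusted p = 0.661).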

How the data were processed

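The authors normalized the scanned arrays with RMA and deposited 1 linear intensity per probe set and dog, and log2 of these values was used here. Array control probe sets (111) were left out. The 18416 probe sets above log2 7 in at least 2 dogs entered limma 3.58.1 (R 4.3.3), glaucoma minus healthy, with Benjamini-Hochberg adjustment over all of them. A gene was represented by its expressed probe set with the highest mean. Symbols came from the array annotation, which gives 1 symbol to 29254 probe sets. RGS7, RGS11, RGS16, GNG5, GNG10, GNG12 and GRK6 had no probe set with 1 such symbol and were not analysed here. Neighbouring genes came from the RefSeq annotation of UU_Cfam_GSD_1.0. The members and lists were chosen with earlier results of these data known. By rule, every expressed member was named and those past the test without overlap were given dog by dog. The fit was tested on simulated data. Arrays have no read depth, and their number limits the precision. Real-time PCR and tissue staining were not analysed here.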

Additional observations from a re-analysis of the deposited data

Results flagged for a closer look

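In groups of 5 dogs, a value far from its group was found in 2 of 62 groups of member genes examined, where chance flags about 1 in 20. GNB3 was 8.63 in the glaucomatous 5-year-old Shiba Inu and 10.29 to 10.89 in the other glaucoma dogs. RGS20 was 10.18 in healthy replicate 1 and 10.60 to 10.70 in the other healthy dogs.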

How the results depend on the processing

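GNAI1, GNAI2, GNAO1, GNG3, RGS10, ADCY2 and ADCY8 kept their direction and call under every alternative but the exact Wilcoxon rank sum test (two-sided), whose smallest adjusted p was 0.0536. It called 0 members and 0 genes of the pathway lists in each count, although 4840 probe sets, among them 9 lower and 10 higher members, had an unadjusted p under 0.05. RGS1 lost its call without single dogs, with the 3' to 5' ratio of 1 control set as a covariate (2.26, adjusted p = 0.101) and without both arrays highest in pigment epithelium markers (1.80, adjusted p = 0.0811), settings chosen after seeing the data, and could not be fitted with a minimum in at least 5 dogs. That ratio was 0.94 ± 0.14 in glaucoma and 1.19 ± 0.22 in healthy dogs. Reduced pathway genes numbered 17 without the minimum, 6 with age as a covariate and 7 with that ratio.

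Replicate numbers did not pair the dogs, with correlations of deviations from -0.24 to 0.07. A replicate block left 8 lower and 6 higher member probe sets and 8 reduced pathway genes.

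Members that did not pass changed sign in places. With age as a covariate, GNAZ was -0.33, RGS9BP -0.069, RGS14 -0.088, GRK1 -0.80 and RIC8A 0.029. With array weights, GNB2 was -0.018, GNG2 -0.36 and RGS6 0.044. Without both Basset Hounds GNAZ was -0.16, and without both Shiba Inus GNG2 was -0.29. With the 3' to 5' ratio, GNG2 was -0.058 and RGS6 0.000108; with that of 1 control set, GNAZ was -0.20, GNG2 -0.092 and RGS6 0.073. Without both arrays highest in pigment epithelium markers GNG2 was -0.35. With single dogs left out, GNAZ ranged from -0.16 to 0.29, GNG2 from -0.34 to 0.19 and RGS6 from -0.11 to 0.040. GNG11 and RIC8B passed with array weights, without the Basset Hounds (then GNB5 too) and without the 5-year-old Basset Hound, GNG11 also without the 14-year-old Shiba Inu, and RGS2 without the Shiba Inus.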
